A study of Homo sapiens with 8 samples.

Results

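The genes described here are 58 genes of mitosis and of the G2/M phase, leaving out the Aurora kinases and their partners. They were chosen by symbol, and each matched 1 of the 58787 gene rows of a table of raw RNA sequencing counts. The cells were IMR32, an established human neuroblastoma line with amplified MYCN. For 6 h they were kept in 0.1% DMSO, the vehicle, or in CR31B dosed at the IC50, and each group had 4 libraries of polyadenylated RNA. CR31B is a rocaglate, a compound that clamps the RNA helicase eIF4A onto messenger RNA and blocks translation. Both groups were the same line with no other change named, a single line is a limited model of neuroblastoma, and the libraries are labelled biological replicates. Replicate 1 of either group was read paired-end, and replicates 2, 3 and 4 single-end.

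Mitosis is driven by the kinase CDK1 bound to cyclin B. WEE1 and PKMYT1 hold the kinase in an inactive, phosphorylated state through G2, and CDC25 phosphatases release it. Condensin then compacts the chromosomes, kinetochores attach them to spindle microtubules, and the spindle checkpoint holds back the anaphase-promoting complex until every kinetochore is attached. That complex then marks securin and cyclin B for destruction, separase cuts the cohesin that joins sister chromatids, and the cell divides by cytokinesis. Most of these genes are transcribed late in the cell cycle under the MuvB complex with MYBL2 and FOXM1, and their level in a culture moves with the proportion of cells in that phase. In bulk RNA a lower share of mitotic cells and less RNA per cell cannot be told apart.

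Totals ranged from 43687828 to 64715535 counts per library, and the 58 genes together took 1.18% to 1.29% of them. Replicate 1 ran against its labels. The mean chi-square per gene, which is lower for more alike libraries, was 9.55 to 17.3 between the library labelled CR31B replicate 1 and the single-end DMSO libraries, and 96.1 to 146 against the single-end CR31B libraries. In the same order, these values were 91.8 to 111 and 8.39 to 21.3 for DMSO replicate 1 as labelled. Among the single-end libraries of one group they were 7.32 to 14.7 in DMSO and 8.29 to 21.5 in CR31B. Layout and replicate 1 cannot be told apart, so results are given for all 8 libraries as labelled and for the 6 single-end libraries, and a direction without further words is that of the single-end libraries. The 8 neuroblastoma identity markers summed to 4990 to 6500 CPM (library-size scaled counts after TMM normalisation) in the libraries labelled CR31B and to 4661 to 6438 in those labelled DMSO. Leukocyte markers summed to at most 0.886 CPM and epithelial markers to at most 0.273, with CD3E and CD68 at 0 in every library, and fibroblast markers to 31.5 to 49.1. The sympathetic marker TH was low, with a mean of 2.43 CPM. Of the identity markers GATA3, a sympathetic lineage factor, was at 804 to 932 CPM in the single-end CR31B libraries and 240 to 275 in DMSO, and HAND2 at 1236 to 1393 and 661 to 695. DBH and PHOX2A ran the other way, at 94.7 to 179 against 228 to 348 CPM and at 387 to 435 against 478 to 576. The part of these markers in the differences below was not tested.

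With all 8 libraries as labelled, 0 of 57 tested members passed an adjusted p of 0.05 (edgeR quasi-likelihood test, Benjamini-Hochberg over 16518 genes), against a background of 0% of all genes tested. The smallest adjusted p of a member was 0.707 by that test, and 0 members had an unadjusted p under 0.05, against 205 of all genes. DESeq2 and limma voom also called 0 genes, with 263 and 219 at an unadjusted p under 0.05. Member differences on the log2 scale ran from -0.48 to 0.54, with a median of 0.03. Leaving out either replicate 1 library gave 36 called members, 22 higher and 14 lower. Of all genes, 41.6% were then called without CR31B replicate 1 and 41.1% without DMSO replicate 1.

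In the 6 single-end libraries the members split. Of 57 tested, 22 were higher and 14 lower with CR31B, and 21 did not pass (edgeR quasi-likelihood test, adjusted p under 0.05). Without DMSO replicate 4 the lower count was 7, against 13% of all genes in that fit. The full counts are 38.6% higher and 24.6% lower, against 23.8% and 17.6% of the 16696 genes tested, and 63.2% called against 41.3%. That background holds many genes with low counts. With a filter of 1 CPM in 3 libraries, 26.9% of 13236 genes were higher and 25.8% lower (52.7% called). Upper quartile scaling turned the split over all genes from 57.5% to 40% of calls higher. It moved the members from 22 and 14 to 20 higher and 18 lower, against 18% and 27% of all genes. The median log2 fold change of the members was 0.09, and that of all tested genes was -0.007. Members ranged from -0.68 (CDC25B) to 1.02 (MKI67), and 5 members passed a change of 1.5-fold, against 10.9% of all genes. The libraries of the 2 groups did not overlap in 26 members with CR31B higher and in 15 with CR31B lower, against 27.7% and 24.4% of all genes. With same-numbered libraries paired by a replicate block, 25 members were higher and 14 lower, against 28.1% and 23.1% of all genes (51.1% called). PRC1 and NUSAP1 gave too little signal to describe and are taken up at the end.

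**Figure D1:**
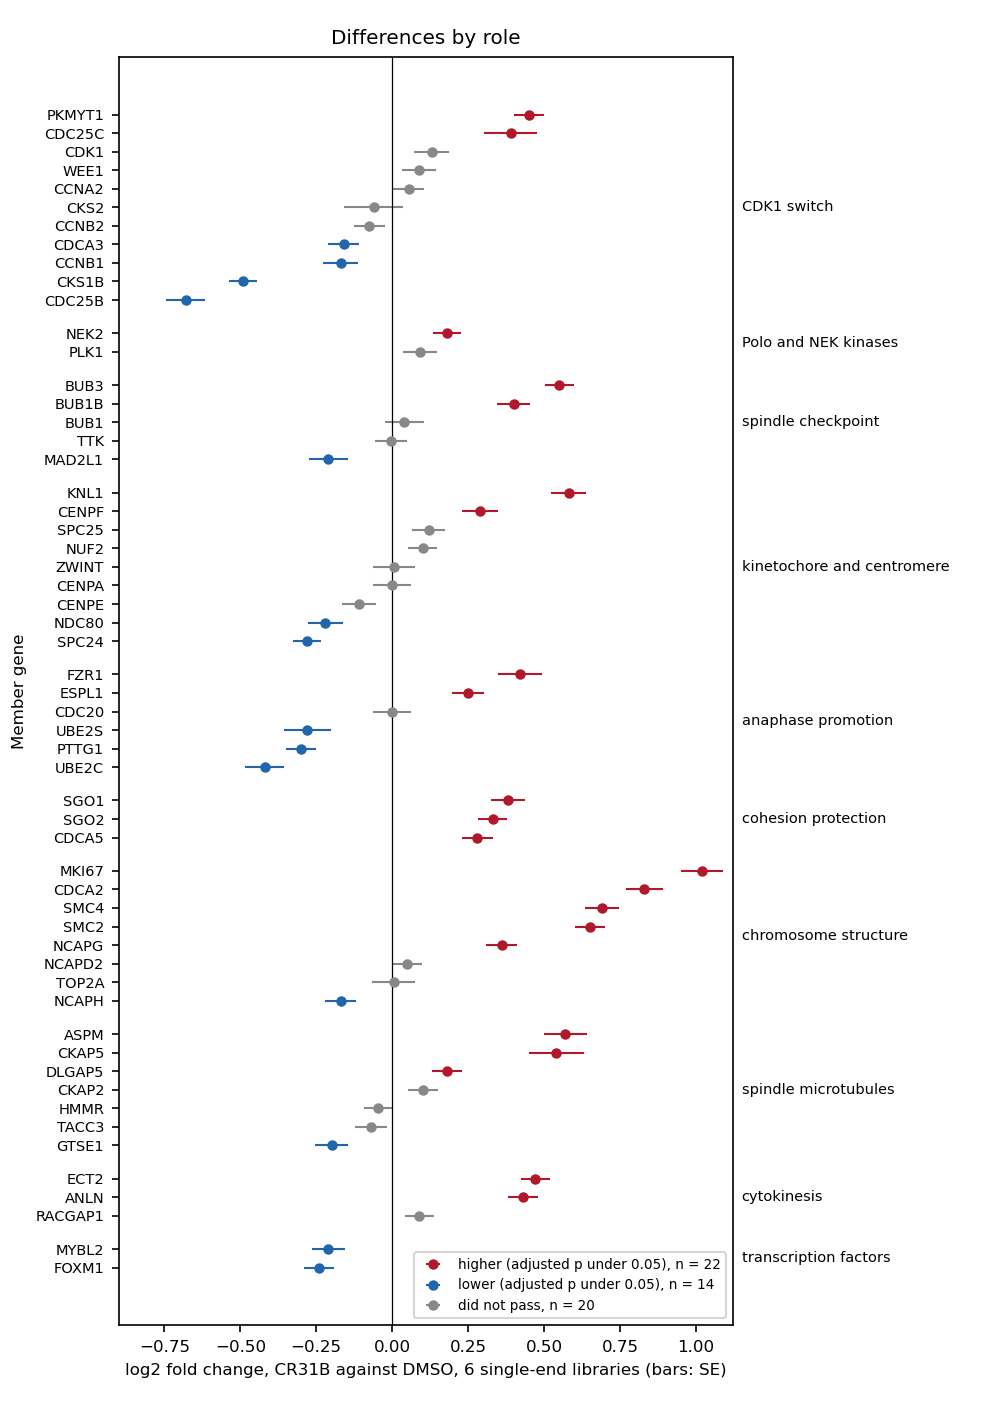
Log2 fold change of CR31B against DMSO in the 6 single-end libraries for 56 members, grouped by role; bars are standard errors, and red and blue mark an adjusted p under 0.05. The 5 higher members and 1 lower member of the chromosome structure group stand beside the CDK1 switch, where 2 were higher and 4 lower. Among all tested genes 23.8% were higher and 17.6% lower.

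All 36 called members had 1 sign in replicates 2, 3 and 4 and the other sign in replicate 1. Over the whole table, 6893 of the 6901 called genes had 1 sign in replicates 2, 3 and 4. Replicate 1 was of opposite sign in 98.9% of the 6901, so neither trait is particular to the members. The interaction of treatment with layout passed for 36 members (edgeR quasi-likelihood test, adjusted p under 0.05), 34 of them called in the single-end libraries, against 42.5% of all genes. Across 56 members with a mean of at least 5 CPM, the difference in replicate 1 and the single-end fold change had a Pearson r of -0.98. Pairs among replicates 2, 3 and 4 had r between 0.95 and 0.97. Over all tested genes these values were -0.74 and 0.62 to 0.70. These correlations are across genes of the same libraries, which are not independent, and are given as descriptions.

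**Figure D2:**
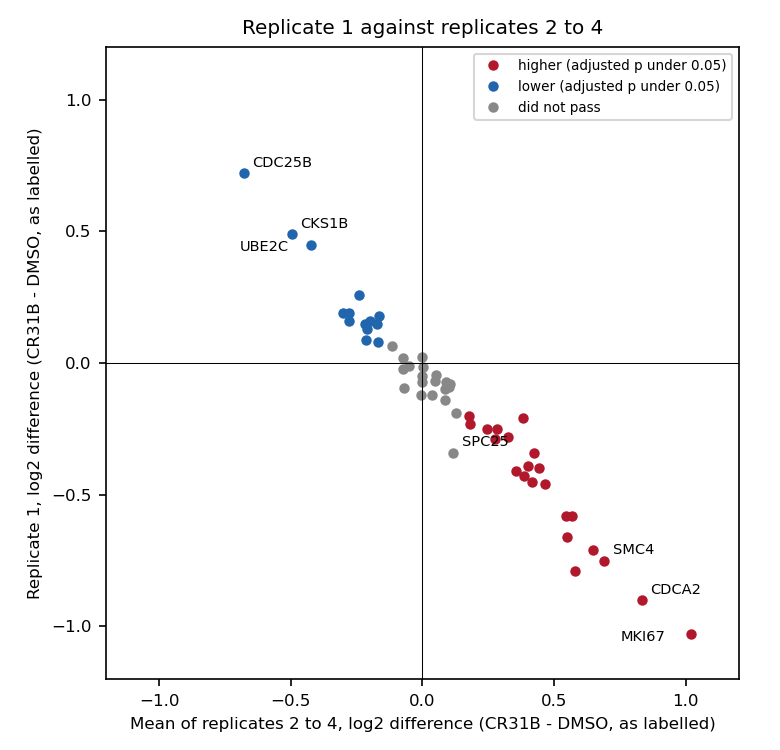
Log2 difference between the libraries labelled CR31B and DMSO in replicate 1 against the mean log2 difference of replicates 2 to 4, one point per member, coloured by the single-end call. Points lie along a falling line, from CDC25B at the upper left to MKI67 at the lower right, which stood at -1.03 in replicate 1.

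Promoter sequence is shown for 3 members with higher and 3 with lower RNA, to set side by side a stretch upstream of the transcription start of genes that ran in opposite directions. The sequences are RefSeq windows (GRCh38.p14), each shown 5′ to 3′ on the gene's strand as 120 bases free of annotated exons, and capitals mark matches to TTTGAA or TTTAAA, letters of the cell cycle homology region bound by MuvB, and to CCAAT, the NF-Y box, on both strands. The stretch reaches the start in MKI67 and UBE2S, from 120 to 1 bases before it. To stay clear of annotated exons it lies 169 to 50 bases before the start in SMC2, 148 to 29 in CKS1B, 146 to 27 in SPC24 and 145 to 26 in ASPM. Matches of the same windows outside the stretches begin 3 bases before the start in SMC2 (TTTGAA), 30 in CKS1B (TTTGAA), 7 and 25 in ASPM (TTTAAA and CCAAT), 191 in UBE2S (CCAAT), 207 in SPC24 (CCAAT), and 231 and 192 in CKS1B (CCAAT). In MKI67 one TTTGAA overlaps a CCAAT on the other strand. The regions are chr10:128126424-128126543 (minus strand) for MKI67, chr9:104094140-104094259 (plus) for SMC2, chr1:197146695-197146814 (minus) for ASPM, chr1:154974533-154974652 (plus) for CKS1B, chr19:55407789-55407908 (minus) for UBE2S and chr19:11155809-11155928 (minus) for SPC24.
MKI67: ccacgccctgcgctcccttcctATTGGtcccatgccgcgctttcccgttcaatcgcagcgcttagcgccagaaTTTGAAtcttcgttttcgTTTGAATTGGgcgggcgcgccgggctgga
SMC2: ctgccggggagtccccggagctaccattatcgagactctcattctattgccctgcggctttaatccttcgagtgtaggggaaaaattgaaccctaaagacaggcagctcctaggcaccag
ASPM: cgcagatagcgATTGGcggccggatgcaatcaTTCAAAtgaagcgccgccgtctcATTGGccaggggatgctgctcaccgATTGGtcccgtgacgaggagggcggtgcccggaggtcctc
CKS1B: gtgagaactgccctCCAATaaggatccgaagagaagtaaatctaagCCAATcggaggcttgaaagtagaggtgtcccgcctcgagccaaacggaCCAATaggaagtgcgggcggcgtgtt
UBE2S: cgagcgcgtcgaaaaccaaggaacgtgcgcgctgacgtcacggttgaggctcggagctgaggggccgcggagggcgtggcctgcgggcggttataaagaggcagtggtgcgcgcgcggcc
SPC24: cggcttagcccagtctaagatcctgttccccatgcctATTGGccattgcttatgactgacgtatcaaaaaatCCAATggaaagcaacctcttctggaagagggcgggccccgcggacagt

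Of the 58 members, 49 had a RefSeq window, taken from 250 bases before to 50 after the start. A homology region match was present in 14 of 18 windows of the higher members (77.8%), 8 of 12 of the lower (66.7%) and 14 of 18 of those not called (77.8%), against 24.3% of 27305 windows of all genes. A CCAAT was found in 55.6%, 75% and 77.8% of these member windows, against 35.7%. An E2F-like match, one of TTTCCCGC, TTTGGCGC, TTTCGCGC or TTTGCCGC, was found in 4 of 49 member windows (8.16%), against 3.33%. Homology region and CCAAT together were present in 57.1% of member windows and 9.49% of all windows. Homology region and CCAAT letters were thus more frequent in members of all 3 calls than among all windows, and a match is a description of letters only.

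The CDK1 switch held 11 members, of which 2 were higher, 4 lower and 5 did not pass. That is 18.2% higher and 36.4% lower, against 23.8% and 17.6% of all genes tested. Counts by role are descriptions and were not tested as sets. CDC25B, a phosphatase that activates CDK1 at the G2/M transition (chromosome 20, 3786772 to 3806121, plus strand), had the largest fall of the members that passed. In replicates 1 to 4 it stood at 187, 114, 128 and 119 CPM in the libraries labelled CR31B and at 113, 186, 208 and 185 CPM in those labelled DMSO. The single-end groups did not overlap, and replicate 1 had them exchanged. Its log2 fold change was -0.68 ± 0.065 (SE, adjusted p = 2.17e-05, edgeR quasi-likelihood), or 120 ± 7.49 against 193 ± 13 CPM (SD, n = 3 each). With all 8 libraries it was -0.34 ± 0.23 (adjusted p = 0.707, edgeR quasi-likelihood).

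CDC25C, the second CDC25 phosphatase listed, was higher by 0.39 ± 0.087 on the log2 scale. It was at 18.4, 21.7 and 21.3 CPM in the single-end libraries labelled CR31B and 15, 17 and 15 in those labelled DMSO. The ratio of CDC25C to CDC25B counts was therefore 0.162, 0.169 and 0.179 in the single-end CR31B libraries and 0.0805, 0.0816 and 0.0811 in the DMSO libraries. Replicate 1 had 0.087 in the library labelled CR31B and 0.167 in the library labelled DMSO. This pair, like the other ratios given here, was picked after its values were seen.

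Of the inhibitory kinases of CDK1, 1 passed. PKMYT1, at the membranes of the Golgi and endoplasmic reticulum, was higher by 0.45 ± 0.05 (adjusted p = 6.1e-05, edgeR quasi-likelihood), with 113, 105 and 109 CPM against 82.3, 79.4 and 78.3. Nuclear WEE1, with 95.3, 87.9 and 94.8 CPM against 88.8, 82.2 and 90.7, overlapped and did not pass. PKMYT1 shares 31.6% of its exonic bases with KREMEN2 and PAQR4 on the other strand. The name of the deposited table holds the word reverse, which may refer to counting by strand, but no label says so, and how reads of such overlaps were assigned is not known.

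CDK1 itself (chromosome 10, 60778331 to 60794852, plus strand) was at 312, 275 and 311 CPM in the single-end CR31B libraries and 277, 273 and 270 in DMSO. One CR31B library lay inside the DMSO range, and the difference of 0.13 ± 0.058 did not pass (adjusted p = 0.0908, edgeR quasi-likelihood). With a replicate block it passed (adjusted p = 0.0307, edgeR quasi-likelihood), and without CR31B replicate 3 it was 0.19 (adjusted p = 0.00841, edgeR quasi-likelihood). CCNA2 and CCNB2, cyclins A2 and B2, stood at 0.06 and -0.08 and overlapped.

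CKS1B, a small CDK-binding subunit also needed by the SCF ligase that removes p27, was lower. It stood at 139, 133 and 135 CPM in the single-end CR31B libraries and at 194, 191 and 189 in DMSO, a gap that exceeds the spread within groups. The change was -0.49 ± 0.046 (adjusted p = 1.86e-05, edgeR quasi-likelihood), with 183 and 130 CPM in replicate 1 in the exchanged order. Its close relative CKS2, at 98.5, 76.3 and 95.9 against 99.3, 84.5 and 98.8 CPM, overlapped.

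CCNB1, cyclin B1, was lower by a small margin, with 157, 140 and 157 CPM against 165, 173 and 174. Its call (-0.17 ± 0.058, adjusted p = 0.041, edgeR quasi-likelihood) was lost with length and GC offsets (0.0669) and when any one of 5 single-end libraries was left out, with an adjusted p of 0.101 without CR31B replicate 3, 0.0525 without CR31B replicate 4, 0.0521 without DMSO replicate 2, 0.0911 without DMSO replicate 3 and 0.128 without DMSO replicate 4. CDCA3, an adaptor that marks WEE1 for destruction, stood at -0.16 on the log2 scale (36 to 37.1 against 40.4 to 41.4 CPM). That call was lost without a filter (adjusted p = 0.0582, edgeR quasi-likelihood), with offsets (0.0535), without CR31B replicate 4 (adjusted p = 0.0883, edgeR quasi-likelihood) and without DMSO replicate 2, 3 or 4 (0.0614, 0.0574 and 0.108).

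**Figure D3:**
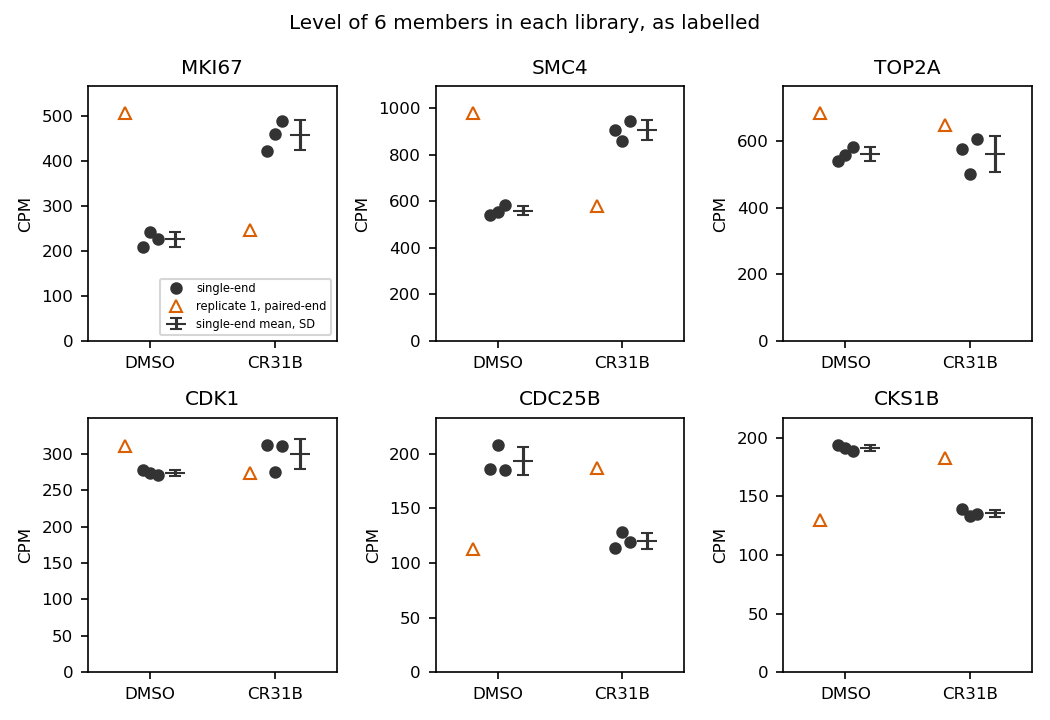
CPM of 6 members in each of the 8 libraries as labelled; dots are single-end libraries, open triangles are replicate 1, and the bar is the single-end mean with SD. MKI67, SMC4, CDC25B and CKS1B separate the single-end groups, with the replicate 1 triangles on the opposite side, while TOP2A overlaps and CDK1 has one CR31B library within the DMSO range.

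PLK1, the Polo kinase that acts on CDC25, cohesin and the spindle, gave 168, 153 and 166 CPM in the single-end CR31B libraries and 156, 144 and 158 in DMSO. These overlapped, and the difference of 0.09 did not pass (adjusted p = 0.233, edgeR quasi-likelihood). NEK2, a centrosome kinase, was higher by 0.18 ± 0.046 (adjusted p = 0.0095, edgeR quasi-likelihood), and its call was lost with upper quartile (adjusted p = 0.13) and total count scaling (adjusted p = 0.0783).

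Of 5 spindle checkpoint members 2 were higher (40%), 1 was lower (20%) and 2 did not pass, against 23.8% and 17.6% of all genes. BUB3, the WD-repeat partner of BUB1 and BUBR1, stood at 411, 628, 621 and 610 CPM in replicates 1 to 4 labelled CR31B and at 647, 429, 422 and 420 CPM in those labelled DMSO. The lowest single-end CR31B library lay well above the highest DMSO library, and replicate 1 had the levels exchanged. The change was 0.55 ± 0.047 (adjusted p = 1.03e-05, edgeR quasi-likelihood). BUB1B, the checkpoint protein BUBR1 that holds CDC20, was higher by 0.40 ± 0.054, with 111, 122 and 118 CPM against 85.5, 92.3 and 87.7.

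The checkpoint effector MAD2L1, which changes shape to bind CDC20, ran the other way. It was at 443, 376 and 422 CPM against 493, 465 and 477, with a change of -0.21 ± 0.065 (adjusted p = 0.0247, edgeR quasi-likelihood). Its groups did not overlap, and the call was lost without CR31B replicate 3 or 4 (adjusted p = 0.0541 and 0.0527) and without DMSO replicate 2 or 4 (0.0799 and 0.0695). The kinase BUB1, at 98.2, 85.7 and 99.7 against 91.5, 95.6 and 88.8 CPM, overlapped, and so did TTK, the MPS1 kinase that starts checkpoint signalling, at -0.005 on the log2 scale.

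Of 9 kinetochore and centromere members 2 were higher (22.2%), 2 lower (22.2%) and 5 did not pass, and the median was 0.005. These shares lie near the 23.8% and 17.6% of all genes. KNL1, the outer kinetochore scaffold to which BUB proteins bind, stood at 130, 124 and 139 CPM in the single-end CR31B libraries and at 84.3, 90 and 88.3 in DMSO. It was higher by 0.58 ± 0.056 (adjusted p = 2.24e-05, edgeR quasi-likelihood), with 87.3 and 151 CPM in replicate 1.

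CENPF, a large protein of the outer kinetochore and nuclear matrix, stood at 1666, 1822 and 1870 against 1502, 1455 and 1437 CPM. It was higher by 0.29 ± 0.059 (adjusted p = 0.00312, edgeR quasi-likelihood). With loess offsets on transcript length and GC content the value was 0.04 (adjusted p = 0.577, edgeR quasi-likelihood), and its longest transcript is 10307 bases. The motor CENPE moved with those offsets from -0.11 (adjusted p = 0.145, edgeR quasi-likelihood) to -0.34 (adjusted p = 0.000326, edgeR quasi-likelihood).

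The 4 subunits of the NDC80 complex, which forms the grip on microtubules, comprised 2 lower members and 2 that did not pass. NDC80 was lower (-0.22 ± 0.058, adjusted p = 0.0124, edgeR quasi-likelihood), with 69.6, 65.4 and 68.5 CPM against 74, 84.1 and 79. Without DMSO replicate 3 its call was lost (adjusted p = 0.0515, edgeR quasi-likelihood). SPC24 was lower at 88.6, 83.5 and 84.8 against 105, 104 and 103 CPM (-0.28 ± 0.047, adjusted p = 0.000956, edgeR quasi-likelihood). NUF2 and SPC25 stood at 0.10 and 0.12 and did not pass, though their single-end groups did not overlap, and with a replicate block they passed (adjusted p = 0.0461 and 0.049, edgeR quasi-likelihood). The ratio of SPC25 to SPC24 counts was 0.563, 0.544 and 0.564 against 0.423, 0.417 and 0.43.

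CENPA, the histone variant that marks the centromere, was among the members nearest to no difference, at 69.6, 63 and 62.9 against 69.7, 62.3 and 63.8 CPM. ZWINT, which brings the RZZ complex to the kinetochore, was at 0.005 on the log2 scale.

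Of 6 members that promote anaphase 2 were higher (33.3%), 3 lower (50%) and 1 did not pass, against 23.8% and 17.6% of all genes. UBE2C, the E2 enzyme that starts ubiquitin chains for the anaphase-promoting complex, stood at 190, 150, 128 and 141 CPM in the libraries labelled CR31B and at 139, 194, 180 and 188 in those labelled DMSO. The single-end groups did not overlap and the change was -0.42 ± 0.064 (adjusted p = 0.000473, edgeR quasi-likelihood). UBE2S, the E2 enzyme that extends those chains, was at 354, 296 and 343 against 422, 367 and 416 CPM (-0.28 ± 0.077, adjusted p = 0.0152, edgeR quasi-likelihood). Its call was lost without DMSO replicate 2 (adjusted p = 0.0575, edgeR quasi-likelihood) and without DMSO replicate 4 (0.0622). PTTG1, securin, the inhibitor of separase, was lower at 92.3, 90.9 and 98.5 against 117, 114 and 116 CPM (-0.30 ± 0.049, adjusted p = 0.000825, edgeR quasi-likelihood).

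Separase itself and the late co-activator ran upwards. ESPL1, separase, was higher by 0.25 ± 0.053, with 99.5, 99.9 and 107 CPM against 83.1, 85.7 and 89.5. FZR1, the co-activator CDH1 that keeps the complex active in late mitosis and G1, was higher by 0.42 ± 0.072 (adjusted p = 0.00105, edgeR quasi-likelihood). The early co-activator CDC20, at 136, 124 and 138 CPM against 129, 127 and 142, overlapped and its fold change was near 0, so its sign changed with scaling and filter settings.

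Each of the 3 members that protect or establish cohesion was higher, against 23.8% of all genes. SGO1, the shugoshin that guards centromeric cohesin, was at 79.5, 77.2 and 76.5 against 63.8, 58.7 and 56.5 CPM (0.38 ± 0.056). SGO2, its relative, was at 88, 85.5 and 89.6 against 70.2, 70.8 and 68.9 CPM (0.33 ± 0.047). CDCA5, sororin, which stabilises cohesin on replicated DNA, was higher by 0.28 ± 0.05. In none of the 3 did the single-end groups overlap, and the adjusted p-values were 0.000376, 0.000316 and 0.00141 (edgeR quasi-likelihood).

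Of 8 chromosome structure members 5 were higher (62.5%), 1 lower (12.5%) and 2 did not pass, with a median of 0.50. Among all tested genes 23.8% were higher and 17.6% lower. MKI67, the Ki-67 protein that coats mitotic chromosomes and serves as a marker of cycling cells (chromosome 10, 128096659 to 128126385, minus strand), had the largest rise of the 57 tested. In replicates 1 to 4 it stood at 248, 424, 462 and 490 CPM in the libraries labelled CR31B and at 507, 210, 243 and 227 CPM in those labelled DMSO. The single-end groups were far apart and replicate 1 had the reverse order. Its change was 1.02 ± 0.07 (adjusted p = 3.09e-06, edgeR quasi-likelihood), or 459 ± 32.9 against 227 ± 16.4 CPM (SD, n = 3 each). It was 0.54 ± 0.33 (adjusted p = 0.707, edgeR quasi-likelihood) with all 8 libraries.

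CDCA2, which brings a PP1 phosphatase to chromosomes as cells leave mitosis, was higher by 0.83 ± 0.06, with 108, 119 and 111 against 67.1, 62.8 and 60.1 CPM. SMC4, an ATPase subunit shared by both condensins, stood at 581, 908, 861 and 946 CPM in the libraries labelled CR31B and at 978, 543, 556 and 582 in those labelled DMSO (0.69 ± 0.056, adjusted p = 7.45e-06, edgeR quasi-likelihood). The single-end groups did not overlap. SMC4 shares 25.6% of its exonic bases with genes on the other strand. Its partner SMC2 was at 209, 213 and 222 against 132, 137 and 141 CPM (0.65 ± 0.05).

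The other condensin I subunits gave 3 outcomes. NCAPG was higher by 0.36 ± 0.052, NCAPD2 did not pass at 0.05, and NCAPH was lower at -0.17 ± 0.05. NCAPH, the kleisin that joins the SMC heads, was at 134, 125 and 136 against 148, 150 and 148 CPM, and its call was lost without DMSO replicate 3 (adjusted p = 0.0508, edgeR quasi-likelihood) and DMSO replicate 4 (0.0603). The ratio of SMC2 to NCAPH counts was 1.56, 1.7 and 1.62 against 0.894, 0.916 and 0.956, and replicate 1 had 0.938 and 1.71.

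TOP2A, the topoisomerase that untangles chromosomes and a marker of cycling cells like MKI67, was at 578, 503 and 608 against 542, 560 and 583 CPM, overlapping, with a change of 0.004 ± 0.071. The ratio of MKI67 to TOP2A counts was 0.734, 0.919 and 0.806 in the single-end CR31B libraries and 0.387, 0.433 and 0.39 in DMSO. With length and GC offsets TOP2A stood at -0.17 (adjusted p = 0.0656, edgeR quasi-likelihood), and with the block added it was lower at -0.18 (adjusted p = 0.00772, edgeR quasi-likelihood).

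**Figure D4:**
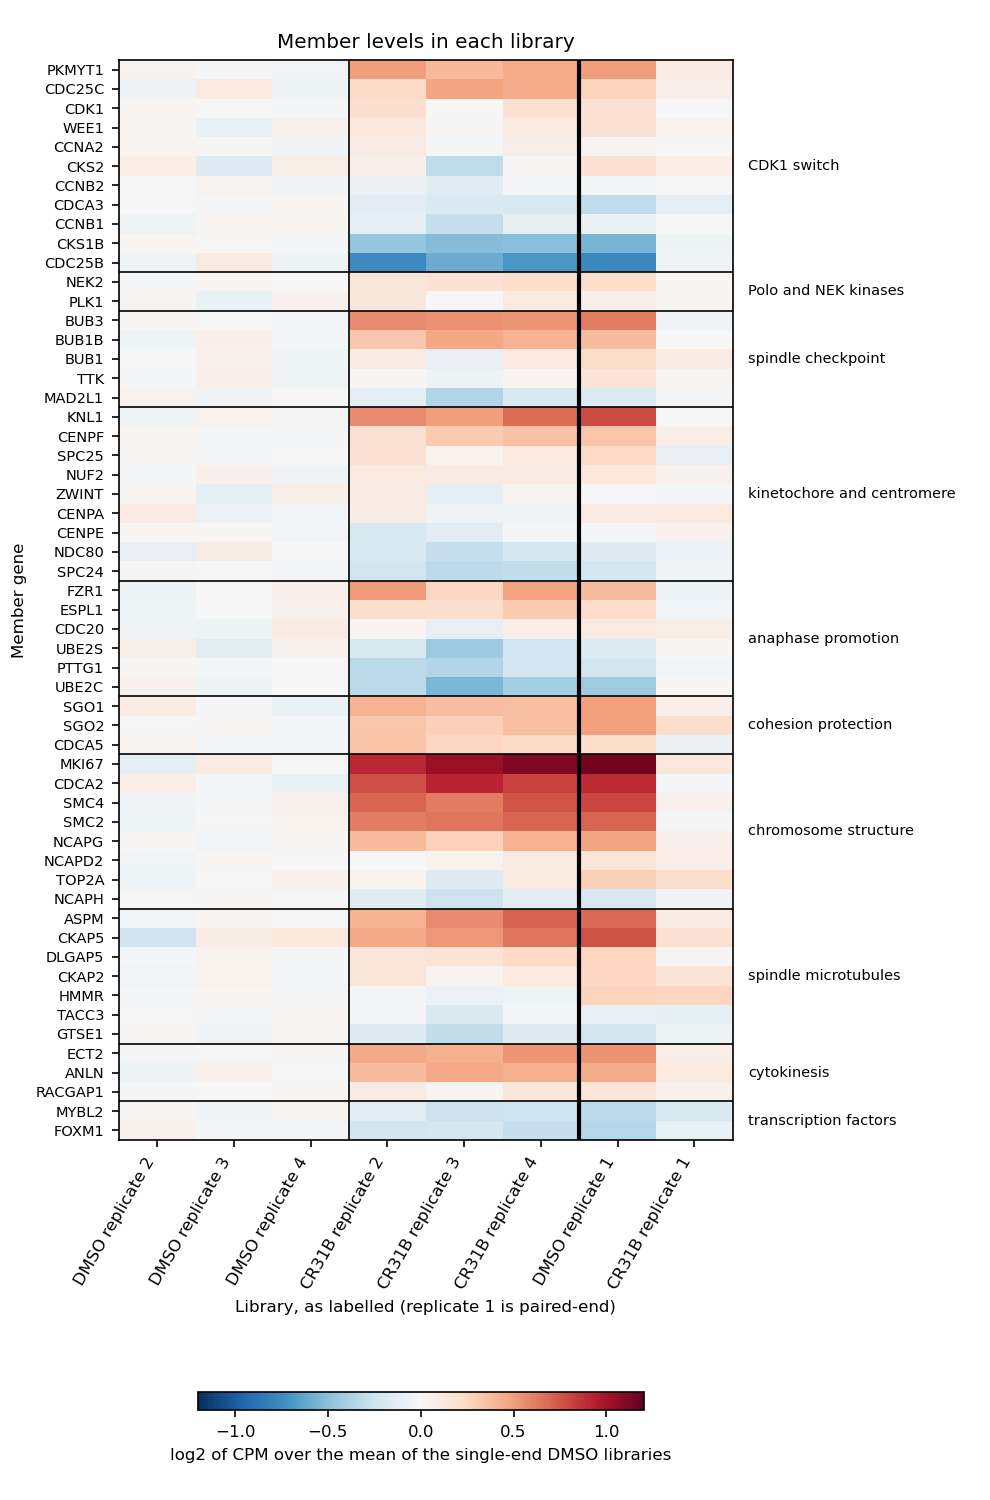
Each member's level in all 8 libraries, as log2 of its CPM over the single-end DMSO mean, for 56 members ordered by role. For called members such as MKI67 and CDC25B the column of DMSO replicate 1 looks like the single-end CR31B columns, and that of CR31B replicate 1 is near 0, while HMMR and TOP2A are raised in both replicate 1 columns.

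Of 8 spindle microtubule members 3 were higher (37.5%), 1 was lower (12.5%) and 4 did not pass, against 23.8% and 17.6% of all genes. ASPM, which focuses spindle poles, stood at 336, 374 and 413 CPM against 247, 257 and 253 (0.57 ± 0.071, adjusted p = 0.00012, edgeR quasi-likelihood). CKAP5, a polymerase that lengthens microtubules, was at 281, 294 and 319 against 173, 217 and 224 CPM (0.54 ± 0.09, adjusted p = 0.000842, edgeR quasi-likelihood). The groups of both genes did not overlap.

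DLGAP5, which stabilises kinetochore fibres, was higher by 0.18 ± 0.05, a call lost without CR31B replicate 4 (adjusted p = 0.0616, edgeR quasi-likelihood) with length and GC offsets (0.0697), and with upper quartile (0.151) and total count scaling (0.0946). GTSE1, a microtubule tip protein, was lower at -0.20 ± 0.055, a call lost without DMSO replicate 4 (adjusted p = 0.067, edgeR quasi-likelihood). TACC3, CKAP2 and HMMR stood at -0.07, 0.10 and -0.05 and did not pass. HMMR passed as lower with length and GC offsets, at -0.13 (adjusted p = 0.0448, edgeR quasi-likelihood).

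Of 3 tested cytokinesis members 2 were higher (66.7%), against 23.8% of all genes. ECT2, the exchange factor that activates RhoA at the cell equator, was at 281, 276 and 296 against 204, 205 and 208 CPM (0.47 ± 0.048, adjusted p = 3.63e-05, edgeR quasi-likelihood). ANLN, anillin, which links the contractile ring to the membrane, was at 171, 180 and 178 against 126, 136 and 132 CPM (0.43 ± 0.049). RACGAP1, a centralspindlin subunit, did not pass at 0.09, though its groups did not overlap.

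Both transcription factors were lower, against 17.6% of all genes. FOXM1, which drives late cell cycle genes, stood at 492, 446, 448 and 428 CPM in the libraries labelled CR31B and at 411, 537, 510 and 512 CPM in those labelled DMSO. The single-end groups did not overlap, and the change was -0.24 ± 0.049 (adjusted p = 0.00333, edgeR quasi-likelihood). MYBL2, the MuvB partner, was at 378, 346 and 348 against 416, 400 and 423 CPM (-0.21 ± 0.054, adjusted p = 0.0109, edgeR quasi-likelihood), a call lost without DMSO replicate 4 (0.0578).

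Measured per kilobase of longest transcript, the most abundant members in the single-end DMSO libraries were UBE2C at 205 CPM per kb, CKS1B at 164, UBE2S at 158, CKS2 at 154 and MYBL2 at 153. Among the least abundant were KNL1 at 9.14 and CDC25C at 7.32. The first of these were among the lower or uncalled members. Abundance and call did not run together throughout, since CENPF at 142 and SMC4 at 102 were higher and CDCA3 at 14 was lower. The division by length also ties this order to transcript length, which differed between calls.

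Transcript length differed between calls. The median longest transcript was 4724 bases in the 22 higher members, 2626 in the 14 lower and 2797 in the 21 not called, and GC content was 41.5%, 50.6% and 42.1%. Across 56 members Spearman's rho of fold change with length was 0.52, against 0.27 over all tested genes, and with GC content -0.33 against -0.15, as descriptions. With loess offsets on both properties 21 members were higher and 14 lower, against 20.5% and 20% of all genes (40.5% called), and the median was 0.07. Of the higher members with long transcripts, ASPM moved from 0.57 to 0.31 and KNL1 from 0.58 to 0.34. BUB3 moved from 0.55 to 0.34 and CKAP5 from 0.54 to 0.36, and these members all stayed called. PKMYT1, with 2308 bases, moved the other way, from 0.45 to 0.48. After the offsets rho with length was 0.29 in the members and 0.004 over all genes, and with GC content -0.15 and -0.0059. Genes on the other strand share 33.1% of the exonic bases of NCAPG, 17.7% of SGO1, 15.9% of FOXM1 and 12.5% of PLK1, and how reads of these overlaps were assigned is not known.

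**Figure D5:**
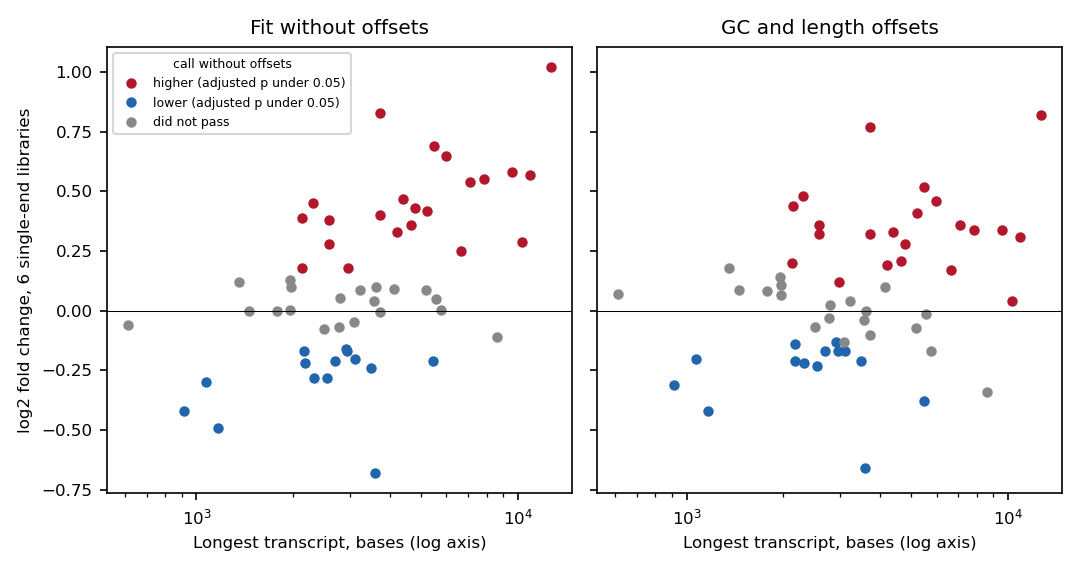
Log2 fold change of CR31B against DMSO in the single-end libraries against longest transcript length in bases, on a log axis, one point per member coloured by its call without offsets; the left panel is the fit without offsets and the right with GC and length offsets. Higher members have a median length of 4724 bases and lower members 2626, and with offsets MKI67 moves from 1.02 to 0.82.

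Beyond the 58 members, 85 other genes of the same pathways were listed. Of these 32 were higher, 22 lower and 31 did not pass, which is 37.6% and 25.9% against 23.8% and 17.6% of all genes, with a median of 0.05. With length and GC offsets 24 were higher and 25 lower, with a median of -0.03, against 20.5% and 20% of all genes in that fit. Without offsets and with a filter of 1 CPM in 3 libraries, 26.9% of all genes were higher and 25.8% lower. Among 12 cohesin genes and loaders 10 were higher and 1 lower, with a median of 0.31. With offsets 7 were higher and 2 lower, and the median was 0.17. NIPBL, the loader, stood at 1.11 on the log2 scale, STAG2, a core subunit, at 0.77 and WAPL, the release factor, at 0.72, while MAU2, the partner of NIPBL, was lower at -0.33. Of 15 subunits and regulators of the anaphase-promoting complex 5 were higher and 6 lower, and of 28 kinetochore genes 11 were higher and 5 lower. Condensin II, with 3 genes, had 0 called (edgeR quasi-likelihood). Among the MuvB core, with 5 genes, LIN54, its DNA-binding subunit, was higher at 0.35, and LIN52 and the histone-binding RBBP4 were lower at -0.33 and -0.31. Of 11 other spindle and midbody genes 1 was higher and 4 were lower.

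NUSAP1, a microtubule bundler, and PRC1, which bundles the central spindle, gave 11 to 37 and 3 to 11 raw counts per library. NUSAP1 shares 62.2% of its exonic bases with AC087721.2 on the same strand, which had 0 counts, and PRC1 shares 57.6% with AC068831.7, which had 86 to 238. Their levels are therefore uncertain, NUSAP1 did not pass and PRC1 was left out by the filter on low counts.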

How the data were processed

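Messenger RNA was counted in 8 libraries of IMR32 cells, 4 labelled CR31B and 4 labelled DMSO. The authors deposited raw counts per Ensembl gene. Per the submitters' processing notes the tools were FastQC 0.11.7, STAR 2.7.2b, edgeR 3.36.0 and limma 3.50.3, with GRCh38; the counting tool and annotation are not given in the sources used here. The deposited table's name holds the word reverse, which may refer to a strand setting that no label states. Coordinates come from GENCODE 29 by identifier, with 58515 of 58787 matched. The labels name a small RNA kit and polyadenylated RNA, 250 ng of input and 15 PCR cycles. Counts may include PCR duplicates, whose share was not measured, and depth gives counting error only. One column header lacks a letter and was assigned from the remaining letters.

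Differences were tested by edgeR 4.0.16, run in R 4.3.3 (filterByExpr, TMM, glmQLFit, glmQLFTest, two-sided, Benjamini-Hochberg over all tested genes), in all 8 libraries with layout as a covariate and in the 6 single-end libraries. Log2 CPM used a prior count of 1. Alternatives were DESeq2 1.42.0, limma 3.58.1 voom, other scalings and filters, a replicate block, GC and length offsets, and leaving out each library. Scripts were tested on simulated counts. The members, gene lists and rules for named genes were chosen with earlier results of these data known. The rule named 12 members, then up to 10 of each direction with a mean of at least 5 CPM and one direction in replicates 2 to 4, and the 3 nearest to no difference. Promoters were shown for the first 3 of each direction with 120 exon-free bases, since stretches inside annotated exons are not shown. Deviations of same-numbered single-end libraries from their group means had correlations of 0.208, 0.388 and 0.157. With all 8 libraries the values were -0.527, -0.078, 0.159 and -0.108 for replicates 1 to 4. Differently numbered libraries were not compared, so these values do not settle whether the numbers pair them. The main fits use no pairing, and the replicate block is given as an alternative. No pair of libraries agreed within sampling noise (smallest mean chi-square per gene 7.32). The p-values measure the spread between these cultures. In the interaction test that spread comes from the single-end libraries only, since the paired-end side has 1 library per group.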

Additional observations from a re-analysis of the deposited data

Results flagged for a closer look

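In the 30 members named by rule, 60 sets of 4 libraries (each group as labelled) were tested for a library far from the others, and 17 passed, of which 16 were replicate 1. Chance flags about 1 in 20, or about 3, if the sets are independent. They are not independent, since all genes were measured in the same libraries. Most of the named genes were also chosen for a shared direction in the single-end libraries, and replicate 1 ran against its labels. Replicate 1 was therefore likely to stand apart in those genes. The chance figure cannot weigh the count of 17, which is given as a description. The share of the group's range taken by the gap to the nearest library was, in the libraries labelled DMSO, 0.959 for ECT2, 0.958 for BUB3, 0.937 for ASPM, 0.919 for CKS1B, 0.915 for KNL1, 0.91 for SMC4, 0.896 for SMC2, 0.89 for MKI67, 0.886 for PKMYT1, 0.879 for CDCA2, 0.869 for PTTG1, 0.86 for SPC24 and 0.838 for CENPF. In the libraries labelled CR31B it was 0.918 for BUB3, 0.872 for CKS1B and 0.858 for SMC2, again in replicate 1. BUB1 was the exception, with CR31B replicate 3 far below the others (0.892).

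The interaction of treatment with layout passed for 36 members (edgeR quasi-likelihood test, adjusted p under 0.05), against 42.5% of all genes. Replicate 1 supplies the paired-end side with 1 library per group. The paired-end layout and replicate 1 cannot be told apart.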

How the results depend on the processing

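Of 36 called members 25 kept their call under all 16 alternatives to the single-end fit, 19 of 22 higher and 6 of 14 lower. How many of all called genes kept theirs was not counted. Whether this hold is particular to the members is therefore not known. Medians of role groups moved with the scaling, and upper quartile and total count scaling put the median of all genes at -0.10 and -0.085, against -0.007. With upper quartile scaling the member median was -0.0078, and 20 members were higher and 18 lower, against 18% and 27% of all genes. With total counts the member median was 0.0095. For upper quartile scaling the role medians were -0.16 (CDK1 switch), 0.04 (Polo and NEK), -0.091 (kinetochore), -0.24 (anaphase), 0.23 (cohesion), 0.41 (chromosome structure), 0.33 (cytokinesis) and -0.32 (transcription factors). For total counts they were 0.057 (Polo and NEK), -0.074 (kinetochore), -0.22 (anaphase), 0.25 (cohesion), 0.42 (chromosome structure) and -0.30 (transcription factors). For a filter of 1 CPM in 3 libraries they were 0.099 (Polo and NEK), -0.032 (kinetochore) and 0.47 (chromosome structure). For GC and length offsets they were 0.068 (kinetochore), -0.061 (anaphase), 0.34 (chromosome structure) and 0.28 (cytokinesis), and with the replicate block added 0.067, -0.061, 0.34 and 0.28. The cause of these moves was not tested.

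The replicate block alone gave 25 higher and 14 lower members, adding CDK1, NUF2 and SPC25, and changed no other call among the members. Leaving out one library at a time gave 0 to 36 called members with all 8 libraries (0 to 22 higher, 0 to 14 lower) and 7 to 14 lower members with the 6 single-end ones. Of all genes, 0% to 41.6% were called with all 8 libraries, and 13% to 16.5% were lower with the single-end ones. Role medians then ran from -0.1 to 0.049 (CDK1 switch), 0.12 to 0.16 (Polo and NEK), -0.043 to 0.066 (kinetochore) and -0.18 to -0.077 (anaphase).

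Members near 0 changed sign. In the single-end libraries CDC20 was -0.012 with RLE scaling, without filter and with DESeq2, -0.096 with upper quartile, -0.079 with total counts and -0.037 with the 1 CPM filter. TOP2A was -0.0078 (RLE, DESeq2), -0.093 (upper quartile), -0.076 (total counts), -0.0074 (no filter), -0.033 (1 CPM filter), -0.17 (GC and length) and -0.18 (with the block). BUB1 was -0.057, -0.04, -0.039 and -0.042, WEE1 -0.0078, -0.074 and -0.074, PLK1 -0.0056 (upper quartile) and CENPA 0.086 and 0.087 (offsets). With all 8 libraries CDC20 was 0.027 with offsets, WEE1 -0.01, -0.0032 and -0.051, and CENPA -0.0023, -0.037, -0.03, -0.0067 and -0.0046. With one library left out, the ranges for all 8 were -0.038 to 0.029 (CDC20), -0.035 to 0.041 (BUB1), -0.06 to 0.034 (TOP2A), -0.0083 to 0.089 (WEE1) and -0.029 to 0.044 (CENPA), and for single-end libraries -0.039 to 0.058 (CDC20), -0.052 to 0.081 (TOP2A) and -0.048 to 0.049 (CENPA). NUSAP1 and PRC1 had 3 to 37 counts per library, too few to describe a difference.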
